A study of Mus musculus with 9 samples.

Results

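Cadherins and protocadherins were described in a mouse breast carcinoma line, D2A1-d, whose cells carried short hairpin RNAs against Med1 or a non-targeting hairpin. The members were taken from the annotation, not from measured values. They were the protein-coding genes whose symbol is Cdh followed only by digits, or begins with Pcdh. This gave 92 of the 55335 genes in the count files: 23 Cdh genes, 12 protocadherin genes outside the gene clusters, and 57 clustered protocadherin genes (14 Pcdha, 22 Pcdhb and 21 Pcdhg). The 3 groups were cells with the hairpin shMed1 #2, cells with the hairpin shMed1 #4, both labelled as Med1 knockdown, and cells with the non-targeting control (NTC), labelled as wild type. Each group held 3 samples named as biological replicates, and all 9 came from transduced cells of the same line. The labels do not tell whether replicates were separate transductions or cultures, nor whether the transduced cells were pools or clones, so each p-value measures only how these samples spread, and that spread may be technical.

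Cadherins are calcium-dependent adhesion receptors of the cell surface. Classical cadherins hold neighbouring cells together at adherens junctions and bind beta-catenin and p120 catenin through their cytoplasmic tails, while alpha-catenin links the complex to actin. E-cadherin (Cdh1) is the member of epithelia, and N-cadherin (Cdh2) and cadherin 11 (Cdh11) are members of mesenchymal cells. The clustered protocadherins lie in tandem on mouse chromosome 18 and are known mainly from neurons, where each cell uses a subset of their promoters with the help of CTCF and cohesin. Pcdha and Pcdhg transcripts join 1 variable exon to constant exons that all genes of the cluster share, whereas each Pcdhb gene has its own exon only. The protein of Med1 belongs to Mediator, which connects transcription factors with RNA polymerase II.

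The files held raw read counts per gene, with library totals of 8123918 to 8879982 counts. Levels are given as CPM, reads of a gene relative to the TMM-scaled library size, and a count of 3 equals 0.344 to 0.363 CPM. Med1 itself stood at 22.0, 25.1 and 24.6 CPM in the shMed1 #2 libraries and at 25.0, 26.5 and 25.4 CPM in those with shMed1 #4, against 85.4, 87.3 and 79.6 CPM in NTC (log2 fold changes -1.81 and -1.71, adjusted p = 5.63e-36 and 6.35e-34 by edgeR). Of 11 epithelial markers, 4 (Epcam, Krt5, Cldn3 and Cldn4) had no count in any library. The list summed to 19.9 to 23.3 CPM with shMed1 #2, 41.7 to 52.3 CPM with shMed1 #4 and 56.8 to 58.3 CPM in NTC, most of it Krt18. The 7 mesenchymal markers summed to 4813 to 5038 CPM with shMed1 #2, 5139 to 5356 CPM with shMed1 #4 and 4319 to 4479 CPM in NTC. Most of it was Vim and Fn1, and the markers did not move together. Vim rose with both hairpins (log2 fold changes 0.57 and 0.38), and Pdgfrb fell with both (-1.36 and -0.70). Col1a1 and Col1a2 were called lower with shMed1 #2 only (-1.61 and -1.45). Fn1 and Acta2 were called lower with shMed1 #2 and higher with shMed1 #4, and S100a4 passed with neither. The 7 leukocyte markers summed to 14.4 to 17.5 CPM with shMed1 #2, 14.3 to 15.9 CPM with shMed1 #4 and 17.4 to 19.8 CPM in NTC, with Cd3e and Itgam at 0. The 6 endothelial markers summed to at most 0.721 CPM in any library. The part of the keratin and mesenchymal levels in the results on cadherins was not tested.

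Promoters are shown for Pcdh19, the member with the largest fold change, and for Pcdh18 and Cdh24, which differed between the hairpins. Among the 5 tested members away from the clusters' chromosome, these 3 had an entry in the RefSeq promoter table (GRCm38.p6), and Cdh11 and Cdh17 had none. Each run holds 300 bases on the minus strand, written 5′ to 3′, with the transcription start at base 251. Capitals mark the GC box GGGCGG or its reverse complement CCGCCC, the letters bound by SP1-type factors. The windows are chrX:133688944-133689243 for Pcdh19, chr3:49757267-49757566 for Pcdh18 and chr14:54641315-54641614 for Cdh24.
Pcdh19: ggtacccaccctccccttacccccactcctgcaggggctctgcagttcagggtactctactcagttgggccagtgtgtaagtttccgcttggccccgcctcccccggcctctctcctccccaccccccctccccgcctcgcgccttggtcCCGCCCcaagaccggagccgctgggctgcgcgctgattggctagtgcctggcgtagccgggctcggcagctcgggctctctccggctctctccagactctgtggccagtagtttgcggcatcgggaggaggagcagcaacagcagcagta
Pcdh18: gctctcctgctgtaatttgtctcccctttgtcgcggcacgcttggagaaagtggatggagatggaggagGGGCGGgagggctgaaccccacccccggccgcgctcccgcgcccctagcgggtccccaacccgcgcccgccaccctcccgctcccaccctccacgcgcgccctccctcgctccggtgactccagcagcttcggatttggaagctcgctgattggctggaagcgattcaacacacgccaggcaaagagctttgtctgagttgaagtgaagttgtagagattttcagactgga
Cdh24: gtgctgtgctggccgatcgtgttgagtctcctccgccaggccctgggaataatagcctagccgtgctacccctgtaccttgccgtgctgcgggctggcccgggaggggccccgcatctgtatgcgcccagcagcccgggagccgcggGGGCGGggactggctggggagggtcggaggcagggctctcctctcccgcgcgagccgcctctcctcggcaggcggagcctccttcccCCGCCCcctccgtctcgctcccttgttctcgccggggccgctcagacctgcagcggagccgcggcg

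All 3 windows were rich in CpG. Pcdh19 had 18 CpG dinucleotides and 67.7% G and C, Pcdh18 had 23 and 63%, and Cdh24 had 30 and 73.3%, against medians of 7 and 52.7% over the 32851 promoters of 300 bases in the table. The GC box occurred once in Pcdh19, once in Pcdh18 and at 2 places in Cdh24, and 35.7% of all these promoters held it on either strand. The letters TATAAA were absent from all 3 on both strands, and 13.6% of all promoters held them. The letters CACCTG, which Snail and ZEB factors recognise, were absent from all 3 on both strands, and 20.2% of all promoters held them. These are matches of letters only.

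Most members had few or no reads. Of the 92 members, 28 had no count in any library, 43 had between 1 and 58 counts over all 9 libraries, and 21 passed edgeR's filter on low counts and were tested. A library with no count allows a level of up to 3 counts, 0.344 to 0.363 CPM. The Pcdha genes had almost no counts: 12 of 14 had none anywhere and the other 2, Pcdha7 and Pcdha9, had 1 count each. Much of their exonic length overlaps other genes, and Pcdha4 has 404 of 5768 bases free of them. How reads there were counted is not known, so these counts may cover the unshared part only. E-cadherin (Cdh1) had 1, 0 and 0 counts with shMed1 #2, no count with shMed1 #4 and 2, 1 and 0 counts in NTC. P-cadherin (Cdh3), a member of basal epithelium, had 3, 2 and 0 counts with shMed1 #2, 3, 0 and 1 with shMed1 #4 and 0, 2 and 2 in NTC. The endothelial cadherin Cdh5 had 5, 6 and 2 counts with shMed1 #2, 1, 6 and 2 with shMed1 #4 and 3, 3 and 3 in NTC. A fall in these 3 genes was not detectable at this depth, and none of them rose above 6 counts in any library. They were not tested. The untested members with the most reads were Pcdhb14 and Pcdhga11 with 58 counts each and Pcdhga1 with 53.

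The tested members were 4 Cdh genes (Cdh11, Cdh24, Cdh17 and Cdh2), 3 protocadherins outside the clusters (Pcdh18, Pcdh1 and Pcdh19), 7 Pcdhb genes and 7 Pcdhg genes. Per kilobase of exon, which allows levels of different genes to be compared, Pcdhgc3 stood highest in NTC at 26.9 ± 1.39 CPM per kilobase. Pcdh18 followed at 21.2 ± 0.952, Cdh24 at 8.72 ± 0.810, Cdh11 at 3.31 ± 0.0867 and Pcdh1 at 1.99 ± 0.0858 CPM per kilobase (SD, n = 3 each). Cdh17 came next at 1.50 ± 0.185, while Pcdh19 stood at 0.823 ± 0.119 and Cdh2 at 0.400 ± 0.110 CPM per kilobase. With shMed1 #2, Cdh11 rose to 7.15 ± 0.324 CPM per kilobase and Cdh24 stood at 7.23 ± 0.538, so these neighbours in the order did not differ beyond their spread. Exons shared between genes are included in these lengths. How the counting treated reads in shared exons is not known, so the values per kilobase of the Pcdhg genes are uncertain. Pcdhga10 has 0 exonic bases free of other genes in the annotation used here, yet 17 counts over all libraries. Of its 4732 exonic bases, 2119 are shared on the same strand and 2613 overlap the gene Gm26672 on the opposite strand. Its counts could come from either part, so they do not settle how shared exons were counted.

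Calls rest on edgeR's quasi-likelihood test over all 13611 tested genes, at a Benjamini-Hochberg adjusted p under 0.05. With shMed1 #2 against NTC, 4 tested members were higher and 6 lower, 10 of 21, where 43.7% of all tested genes were called, 21.8% higher and 21.9% lower. With shMed1 #4 against NTC, 3 were higher and 4 lower, 7 of 21, where 28.2% of all tested genes were called, 14.0% higher and 14.1% lower. These shares lie near the background, so the number of calls sets the family apart in neither comparison. Called lower with both hairpins were 2 members (Pcdh19 and Pcdhb22), where 10.1% of all tested genes were, and called higher with both were 2 (Cdh11 and Pcdhgc3), where 10.4% were. In all, 4 members passed the filter with at least 10 counts in every library of NTC but of neither hairpin group (Pcdh19, Pcdhb18, Pcdhb20 and Pcdhgb6), and 1 so with shMed1 #2 only (Pcdhgb7), so counts and medians over the 21 are descriptions. Both comparisons used the same NTC libraries. Overlap of libraries is described below for single members, and the share of all tested genes without overlap is not given.

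**Figure D1:**
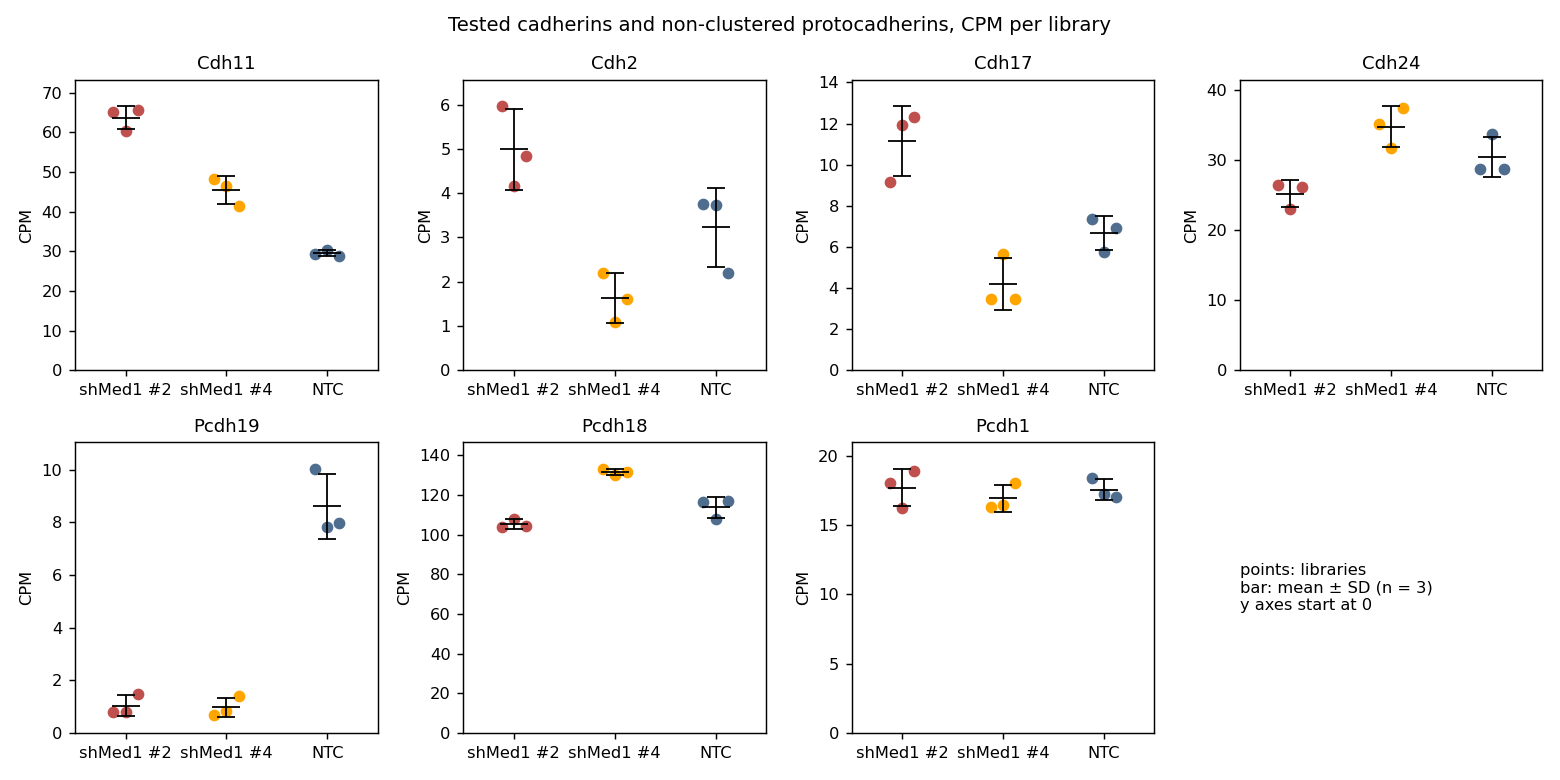
CPM (y axis, from 0) of the 7 tested cadherins and non-clustered protocadherins in each library (points) with mean ± SD (bars, n = 3), for shMed1 #2, shMed1 #4 and NTC. Cdh11 was higher with both hairpins, Cdh2 and Cdh17 stood highest with shMed1 #2 and lowest with shMed1 #4 by their means, and Pcdh19 stood under 1.5 CPM with both hairpins.

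Cadherin 11 rose with both hairpins. Cdh11 (ENSMUSG00000031673.6, minus strand of chromosome 8, 102632095 to 102785642, GRCm38), a type II cadherin of mesenchymal cells and osteoblasts, stood at 65.2, 60.4 and 65.5 CPM in the shMed1 #2 libraries, at 48.3, 46.5 and 41.4 CPM in those with shMed1 #4, and at 29.4, 30.3 and 28.8 CPM in NTC. The 3 groups did not overlap, and every library with shMed1 #2 lay above every library with shMed1 #4. The log2 fold change was 1.11 (SE 0.0749, adjusted p = 1.00e-22) for shMed1 #2, and for shMed1 #4 it was 0.62 (SE 0.0790, adjusted p = 5.52e-10). In the test between the hairpins, Cdh11 was lower with shMed1 #4 than with shMed1 #2 by a log2 difference of -0.49 (SE 0.0695, adjusted p = 2.10e-08). In bulk RNA, more cells that express a gene and more RNA per cell cannot be told apart.

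N-cadherin and LI-cadherin were called in opposite directions by the 2 hairpins. Cdh17 (ENSMUSG00000028217.11, plus strand of chromosome 4, 11758147 to 11817895) encodes LI-cadherin, which is known from intestine and liver and lacks the catenin-binding tail of classical cadherins. It stood at 9.18, 11.9 and 12.3 CPM in the shMed1 #2 libraries, at 3.48, 5.64 and 3.47 CPM in those with shMed1 #4, and at 7.38, 5.77 and 6.93 CPM in NTC. The 3 groups did not overlap. Cdh17 rose by 0.73 on the log2 scale with shMed1 #2 (SE 0.163, adjusted p = 0.000112), and fell with shMed1 #4 (log2 fold change -0.68, SE 0.198, adjusted p = 0.00578). The call with shMed1 #4 was lost without its replicate 1 (log2 fold change -0.56, adjusted p = 0.0543).

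Cdh2 (ENSMUSG00000024304.14, minus strand of chromosome 18, 16588877 to 16809246) encodes N-cadherin. Its counts were 52, 36 and 42 for shMed1 #2, 19, 9 and 14 for shMed1 #4, and 31, 31 and 19 in NTC. These equal 5.96, 4.17 and 4.83 CPM for shMed1 #2, 2.21, 1.08 and 1.62 CPM for shMed1 #4, and 3.75, 3.73 and 2.20 CPM in NTC. The libraries with shMed1 #2 lay above all others, and the highest with shMed1 #4 overlapped the lowest in NTC. Cdh2 rose by 0.63 with shMed1 #2 (SE 0.234, adjusted p = 0.0216) and fell with shMed1 #4 (-0.96, SE 0.296, adjusted p = 0.00883). The call with shMed1 #2 missed the threshold in DESeq2 (log2 fold change 0.64, adjusted p = 0.0961), without NTC replicate 3 (0.42, adjusted p = 0.195) and without shMed1 #2 replicate 1 (0.49, adjusted p = 0.136). The call with shMed1 #4 missed it without NTC replicate 1 (-0.84, adjusted p = 0.0581), NTC replicate 2 (-0.84, adjusted p = 0.0583) or shMed1 #4 replicate 2 (-0.74, adjusted p = 0.0796).

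As the changes had opposite signs, the difference between the hairpins was by construction larger than either change against NTC in both genes. With shMed1 #4 against shMed1 #2, Cdh2 was lower by a log2 difference of -1.60 (SE 0.269, adjusted p = 1.61e-06) and Cdh17 by -1.41 (SE 0.178, adjusted p = 6.63e-10), and neither call was lost under any alternative. With shMed1 #4 against shMed1 #2, 2 members were higher and 3 lower, 5 of 21, where 26.0% of all tested genes were called, 12.9% higher and 13.1% lower. Opposite calls of this kind, higher with shMed1 #2 and lower with shMed1 #4, were made for 65 genes, 0.478% of all tested.

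Cdh24 and Pcdh18 also differed between the hairpins, in the other direction. Cdh24 (ENSMUSG00000059674.7, chromosome 14, 54631231 to 54641364), a type II cadherin that binds catenins, stood at 26.4, 23.1 and 26.2 CPM in the shMed1 #2 libraries, at 35.2, 31.7 and 37.5 CPM in those with shMed1 #4, and at 28.8, 33.7 and 28.8 CPM in NTC. The libraries with shMed1 #2 lay below all others, while those with shMed1 #4 overlapped NTC. Cdh24 fell with shMed1 #2 (-0.27, SE 0.0921, adjusted p = 0.0129), a call lost without NTC replicate 2 (0.143) or shMed1 #2 replicate 2 (0.0988). With shMed1 #4 its log2 fold change of 0.20 missed the threshold (adjusted p = 0.0862), and passed it without NTC replicate 2 (0.0334) or shMed1 #4 replicate 2 (0.0388). Between the hairpins Cdh24 was higher with shMed1 #4 by 0.46 (SE 0.0898, adjusted p = 2.70e-05).

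Pcdh18 (ENSMUSG00000037892.13, chromosome 3, 49743296 to 49757325), a delta-type protocadherin known to bind the adaptor Dab1, stood at 104, 108 and 104 CPM in the shMed1 #2 libraries, at 133, 130.2 and 132 CPM in those with shMed1 #4, and at 116, 108 and 117 CPM in NTC. The libraries with shMed1 #4 lay above all others, and those with shMed1 #2 overlapped NTC. Pcdh18 rose by 0.21 with shMed1 #4 (SE 0.0506, adjusted p = 0.000650). With shMed1 #2 its log2 fold change was -0.11 (adjusted p = 0.0750), and it passed as lower when scaled by library size alone (adjusted p = 0.00895) or without NTC replicate 2 (0.0362). Between the hairpins Pcdh18 was higher with shMed1 #4 by 0.32 (SE 0.0509, adjusted p = 3.70e-07).

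Pcdh19 had the largest fold change of the tested members with both hairpins. Pcdh19 (ENSMUSG00000051323.16, minus strand of chromosome X, 133582860 to 133688987) encodes a delta-type protocadherin of neurons, whose human gene underlies an epilepsy. Its counts were 7, 7 and 13 in the shMed1 #2 libraries, 6, 7 and 12 in the shMed1 #4 libraries, against 83, 65 and 69 in NTC. In CPM it stood at 0.803, 0.811 and 1.50 with shMed1 #2 and at 0.697, 0.841 and 1.39 with shMed1 #4, against 10.0, 7.82 and 7.97 in NTC. Every library with a hairpin against Med1 lay below every NTC library. The log2 fold change was -3.03 (SE 0.262, adjusted p = 3.78e-17) for shMed1 #2, and for shMed1 #4 it was -3.12 (SE 0.267, adjusted p = 8.11e-17). Between the hairpins the log2 difference was -0.08, with a 95% interval from -0.90 to 0.73 (adjusted p = 0.917).

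Protocadherins are known mainly from neurons, and 5 neuron markers summed to 2.75 to 3.48 CPM with shMed1 #2 and 2.52 to 3.24 CPM with shMed1 #4, against 5.20 to 6.24 CPM in NTC. Most of this was the tubulin gene Tubb3, and Rbfox3, Snap25 and Nefl had no count in any library. The part of the neuron marker levels in the fall of Pcdh19 and in the Pcdhb results was not tested. Of 384 tested genes on that chromosome outside the family, 98 were lower and 89 higher with shMed1 #2 (median log2 fold change -0.0061). With shMed1 #4, 56 were lower and 65 higher (median 0.02). Those lower made up 25.5% and 14.6%, where 21.9% and 14.1% of all tested genes were lower.

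Pcdh1 (ENSMUSG00000051375.15, chromosome 18, 38185914 to 38212053), a delta-type protocadherin known from airway epithelium, stood at 18.0, 16.2 and 18.9 CPM in the shMed1 #2 libraries, at 16.3, 16.5 and 18.0 CPM in those with shMed1 #4, and at 18.4, 17.2 and 17.0 CPM in NTC. All 3 groups overlapped. Its log2 fold change was 0.02 with shMed1 #2 (95% interval from -0.20 to 0.23, adjusted p = 0.929) and -0.05 with shMed1 #4 (from -0.27 to 0.17, adjusted p = 0.787).

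**Figure D2:**
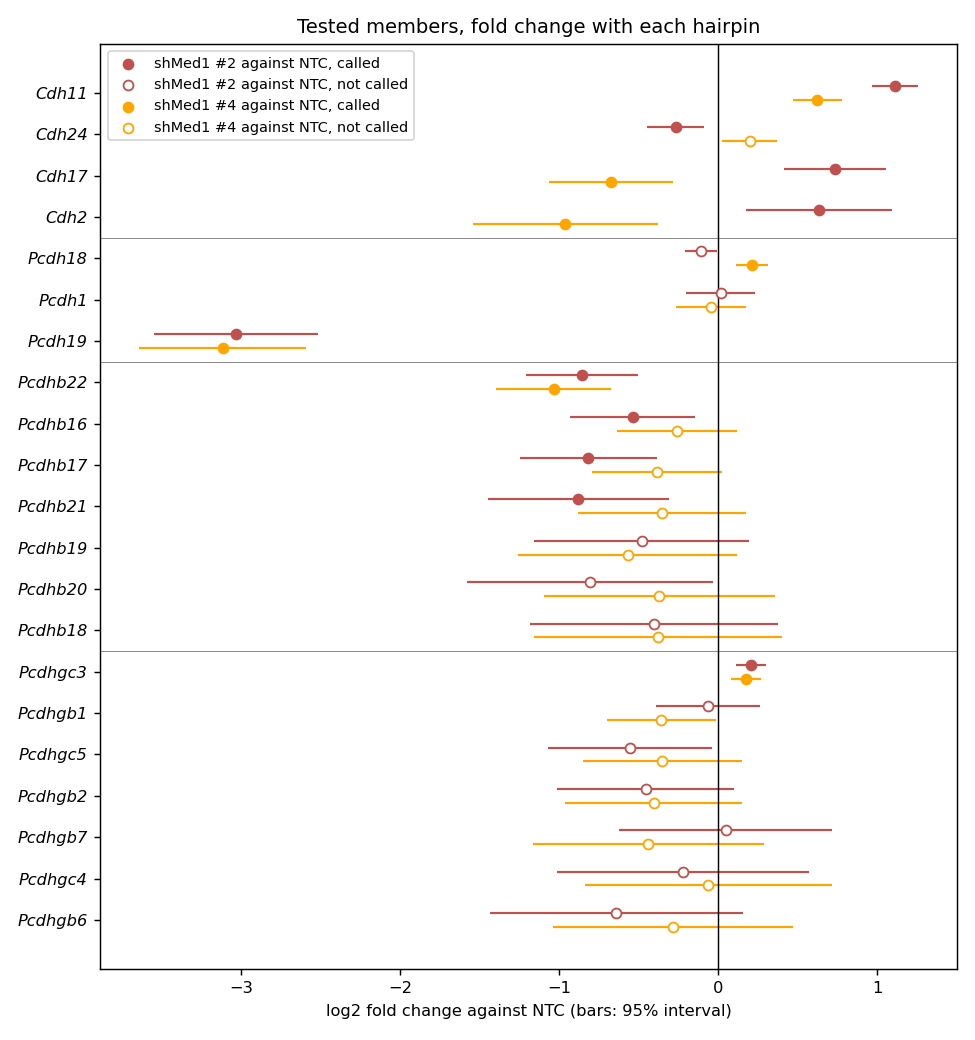
Log2 fold change against NTC (x axis) of the 21 tested members, grouped as Cdh, non-clustered Pcdh, Pcdhb and Pcdhg genes and ordered by abundance within each group, for shMed1 #2 (upper point) and shMed1 #4 (lower point). Bars give the 95% interval of the fit, and filled points passed an adjusted p under 0.05. The 7 tested Pcdhb genes lie left of 0 with both hairpins, but Pcdhb18 and Pcdhb20 reached 10 counts in every library of NTC only.

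Of the 7 tested Pcdhb genes, 4 fell with shMed1 #2 and 1 with shMed1 #4, and 0 were called higher. Of all tested genes, 21.9% were lower with shMed1 #2 and 14.1% with shMed1 #4, while 21.8% and 14.0% were higher. The 1 of 7 with shMed1 #4 lies near that share. Of the 7, Pcdhb18 and Pcdhb20 reached 10 counts in every library of NTC only, so directions over the 7 are descriptions. Summed over all 22 Pcdhb genes, tested or not, the level was 17.7, 16.2 and 22.3 CPM with shMed1 #2 and 19.9, 20.8 and 23.3 CPM with shMed1 #4, against 30.1, 29.9 and 31.4 CPM in NTC. All 6 libraries with a hairpin against Med1 lay below all 3 NTC libraries. The means were 18.7 ± 3.18 CPM with shMed1 #2, 61.4% of NTC, and 21.3 ± 1.76 CPM with shMed1 #4, 69.8% of NTC, against 30.5 ± 0.811 CPM in NTC (SD, n = 3 each). The sum is a description over members and was not tested. Not every member lay on the same side: the untested Pcdhb5 had 6 counts over the shMed1 #2 libraries and 7 over the shMed1 #4 libraries, against 1 over the NTC libraries, and Pcdhb14 averaged 0.922 CPM with shMed1 #2 and 0.546 CPM with shMed1 #4, against 0.787 CPM in NTC. The 7 tested Pcdhb genes lie side by side on chromosome 18, and reads from near-identical stretches of these paralogs may have been split or dropped by the counting.

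Pcdhb22 was the Pcdhb gene called with both hairpins. Pcdhb22 (ENSMUSG00000073591.4, plus strand of chromosome 18, 37517871 to 37524479) stood at 4.24, 4.06 and 5.75 CPM in the shMed1 #2 libraries and at 4.30, 3.84 and 4.28 CPM in those with shMed1 #4, against 8.83, 7.94 and 8.78 CPM in NTC. The libraries with either hairpin lay below all NTC libraries. The log2 fold change was -0.86 (SE 0.180, adjusted p = 4.22e-05) for shMed1 #2, and for shMed1 #4 it was -1.04 (SE 0.185, adjusted p = 4.45e-06). Pcdhb22 shares 455 exonic bases with its neighbour Pcdhb21.

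Pcdhb21, Pcdhb17 and Pcdhb16 fell with shMed1 #2 and missed the threshold with shMed1 #4. Pcdhb17 stood at 3.21, 2.32 and 3.68 CPM in the shMed1 #2 libraries and at 4.41, 3.72 and 4.28 CPM in those with shMed1 #4, against 4.72, 6.01 and 5.55 CPM in NTC. Pcdhb16 stood at 4.24, 4.06 and 3.79 CPM in the shMed1 #2 libraries and at 4.64, 4.80 and 5.21 CPM in those with shMed1 #4, against 6.29, 5.65 and 5.66 CPM in NTC. Pcdhb21 stood at 1.72, 1.04 and 2.76 CPM in the shMed1 #2 libraries and at 1.86, 3.00 and 3.12 CPM in those with shMed1 #4, against 3.39, 3.13 and 3.70 CPM in NTC. In Pcdhb16 and Pcdhb17 every library with a hairpin against Med1 lay below every NTC library. The same held in Pcdhb21, where the highest library with shMed1 #4 lay just under the lowest in NTC. For all 3 genes this only describes the libraries, since none was called with shMed1 #4. The log2 fold changes with shMed1 #2 were -0.82 for Pcdhb17 (adjusted p = 0.00145), -0.54 for Pcdhb16 (adjusted p = 0.0222) and -0.88 for Pcdhb21 (adjusted p = 0.00949). With shMed1 #4 they were -0.39 (adjusted p = 0.165), -0.26 (adjusted p = 0.334) and -0.36 (adjusted p = 0.352). Between the hairpins none of the 3 passed (adjusted p = 0.174, 0.357 and 0.210), so the hairpins are not shown to differ. The call of Pcdhb16 was lost in DESeq2 (adjusted p = 0.0768), without NTC replicate 1 (0.0789) and without shMed1 #2 replicate 3 (0.0692), and that of Pcdhb21 without shMed1 #2 replicate 2 (0.110). The other three tested, Pcdhb18, Pcdhb19 and Pcdhb20, averaged 0.922 to 1.50 CPM with shMed1 #2, 1.09 to 1.41 CPM with shMed1 #4 and 1.42 to 2.10 CPM in NTC, and passed in neither comparison.

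In the Pcdhg cluster 1 gene held most of the reads. Pcdhgc3 (ENSMUSG00000102918.1, plus strand of chromosome 18, 37806364 to 37841873), a C-type gamma protocadherin that many cell types use, gave 79.4% to 82.8% of all clustered protocadherin counts with shMed1 #2 and 78.7% to 80.7% with shMed1 #4, against 72.0% to 72.5% in NTC. It stood at 176, 170.4 and 166 CPM in the shMed1 #2 libraries and at 174, 161 and 165 CPM in those with shMed1 #4, against 153, 139 and 152 CPM in NTC. All libraries with a hairpin against Med1 lay above all NTC libraries. Pcdhgc3 rose by 0.21 with shMed1 #2 (SE 0.0481, adjusted p = 0.000221) and by 0.17 with shMed1 #4 (SE 0.0483, adjusted p = 0.00355), and the call with shMed1 #4 was lost without NTC replicate 2 (adjusted p = 0.0677).

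The chromosome that holds the clusters, Cdh2 and Pcdh1 leaned to higher calls. Of 343 tested genes on chromosome 18 outside the family, 113 were higher and 46 lower with shMed1 #2 (median log2 fold change 0.10), and 69 were higher and 33 lower with shMed1 #4 (median 0.05). Of all tested genes, 21.8% were higher and 21.9% lower with shMed1 #2, and 14.0% higher and 14.1% lower with shMed1 #4. The genes of this chromosome were not set beside genes of like abundance. The part of this lean in the rise of Pcdhgc3 was not tested.

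What Pcdhgc3 counts measure is limited by its annotation. Of its 5499 exonic bases, 2119 are shared with other genes of the cluster and 1559 overlap the gene BC037039 on the opposite strand, which leaves 1821. BC037039 averaged 128 ± 3.45 CPM with shMed1 #2 and 126 ± 4.47 CPM with shMed1 #4, against 105 ± 6.63 CPM in NTC (SD, n = 3 each). It rose by 0.28 and 0.25 on the log2 scale (adjusted p = 5.45e-06 and 7.04e-05). No source used here gives the strand setting of the counting, so reads of both genes cannot be told apart in the overlap.

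The 20 Pcdhg genes other than Pcdhgc3 summed to 21.3, 19.0 and 20.7 CPM in the shMed1 #2 libraries and to 21.8, 20.1 and 21.5 CPM in those with shMed1 #4, against 27.7, 23.2 and 27.5 CPM in NTC. All libraries with a hairpin against Med1 again lay below all NTC libraries, by a smaller margin than the Pcdhb sum. None of the 6 tested ones passed against NTC. Pcdhgb1, the most abundant of them, stood at 6.88, 6.14 and 9.66 CPM in the shMed1 #2 libraries, at 6.04, 5.88 and 6.59 CPM in those with shMed1 #4, and at 8.71, 6.73 and 8.32 CPM in NTC. Its log2 fold change was -0.07 with shMed1 #2 (95% interval from -0.39 to 0.26, adjusted p = 0.778) and -0.36 with shMed1 #4 (from -0.70 to -0.02, adjusted p = 0.121). Pcdhgc5 stood at 2.98, 2.09 and 1.96 CPM in the shMed1 #2 libraries and at 2.90, 2.76 and 2.43 CPM in those with shMed1 #4, against 3.27, 3.97 and 3.12 CPM in NTC, without overlap between hairpin and NTC libraries. Pcdhgb2 stood at 2.18, 2.66 and 1.73 CPM in the shMed1 #2 libraries, at 2.79, 2.28 and 1.74 CPM in those with shMed1 #4, and at 3.39, 3.61 and 2.08 CPM in NTC, with overlap (adjusted p = 0.190 and 0.300). Pcdhgc5 with shMed1 #2 (-0.56, adjusted p = 0.0792) passed only without shMed1 #2 replicate 1 (adjusted p = 0.0369). With shMed1 #4 its log2 fold change was -0.35 (adjusted p = 0.328 by edgeR). The remaining Pcdhgb6, Pcdhgb7 and Pcdhgc4 averaged 0.883 to 1.92 CPM with shMed1 #2, 1.14 to 1.36 CPM with shMed1 #4 and 1.36 to 1.86 CPM in NTC.

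**Figure D3:**
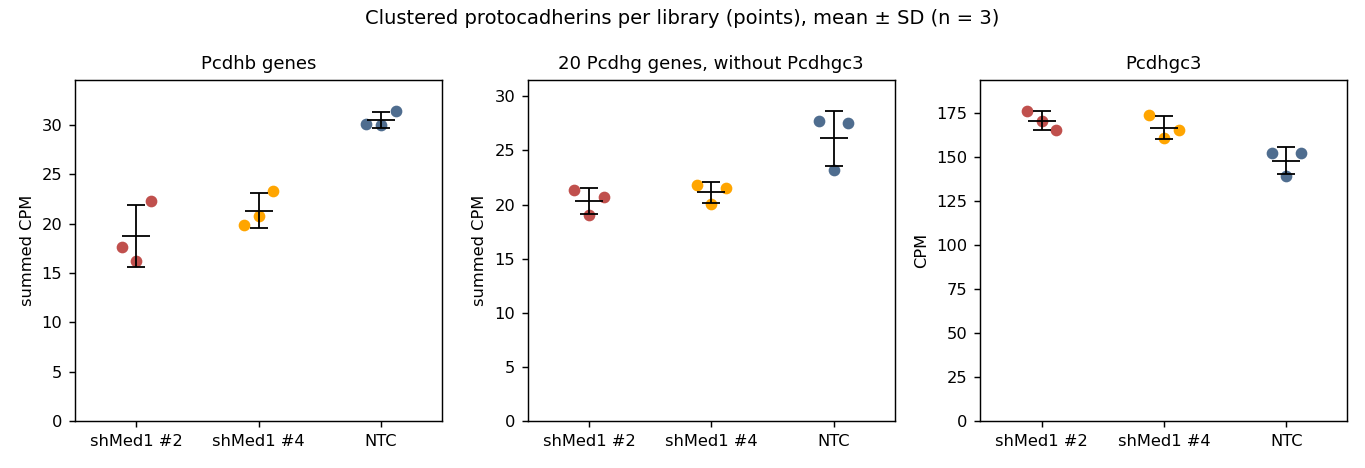
Summed CPM (y axes, from 0) of the 22 Pcdhb genes and of the 20 Pcdhg genes without Pcdhgc3, and CPM of Pcdhgc3, in each library (points) with mean ± SD (bars, n = 3). The Pcdhb sum lies between 16.2 and 23.3 CPM with the hairpins and between 29.9 and 31.4 CPM in NTC, while Pcdhgc3 lies above NTC in all 6 libraries with a hairpin against Med1.

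Over all 57 clustered genes, Pcdhgc3 included, the group means differed by less than the SD of NTC. The sum averaged 210.0 ± 4.95 CPM with shMed1 #2 and 209 ± 6.97 CPM with shMed1 #4, against 205 ± 10.7 CPM in NTC (SD, n = 3 each). Scaled by library size alone, the means were 207 CPM with shMed1 #2, 209 CPM with shMed1 #4 and 208 CPM in NTC, which turns the direction for shMed1 #2. Without Pcdhgc3 it averaged 39.1 ± 3.84 CPM with shMed1 #2, 69.0% of NTC, and 42.4 ± 2.07 CPM with shMed1 #4, 74.9% of NTC, against 56.7 ± 3.11 CPM in NTC.

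Scarce genes of any kind were lower more often than higher, so the members were set beside unlisted genes of like abundance. The 7 clustered members with a mean of 1 to 3 log2 CPM had a median log2 fold change of -0.56 with shMed1 #2, 4 of them lower and 0 higher. The 2439 unlisted genes in that range had a median of -0.13, with 20.7% lower and 7.18% higher. With shMed1 #4 the medians were -0.36 and -0.06, and 1 of the 7 was lower, where 10.8% of the unlisted genes were. The 6 clustered members under 1 log2 CPM had medians of -0.44 and -0.38 with shMed1 #2 and shMed1 #4, and none was called. The 1086 unlisted genes there had medians of -0.16 and -0.06, with 15.4% and 8.66% lower. Of these 6 members, Pcdhb18, Pcdhb20 and Pcdhgb6 reached 10 counts in every library of NTC only, and Pcdhgb7 of shMed1 #2 only. The filter itself can shift such medians, so they are descriptions. In the range of 1 to 3 log2 CPM the 3 other members (Cdh17, Cdh2 and Pcdh19) were all called with both hairpins. Of the unlisted genes there, 7.18% were higher and 20.7% lower with shMed1 #2, and 3.98% higher and 10.8% lower with shMed1 #4. Of the 3 members, Pcdh19 reached 10 counts in every library of NTC only. Of the 2 with 3 to 5 log2 CPM, Cdh24 was called lower with shMed1 #2, where 13.8% of the unlisted genes were higher and 25.5% lower, and neither was called with shMed1 #4, where 9.25% were higher and 14.5% lower. Of the 2 others at 5 or more, Cdh11 was called higher with shMed1 #2, where 35.3% of the unlisted genes were higher and 21.4% lower. Both, Cdh11 and Pcdh18, were called higher with shMed1 #4, where 22.7% were higher and 16.1% lower, and so was the clustered Pcdhgc3 with either hairpin. These shares describe the genes and were not tested against each other.

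**Figure D4:**
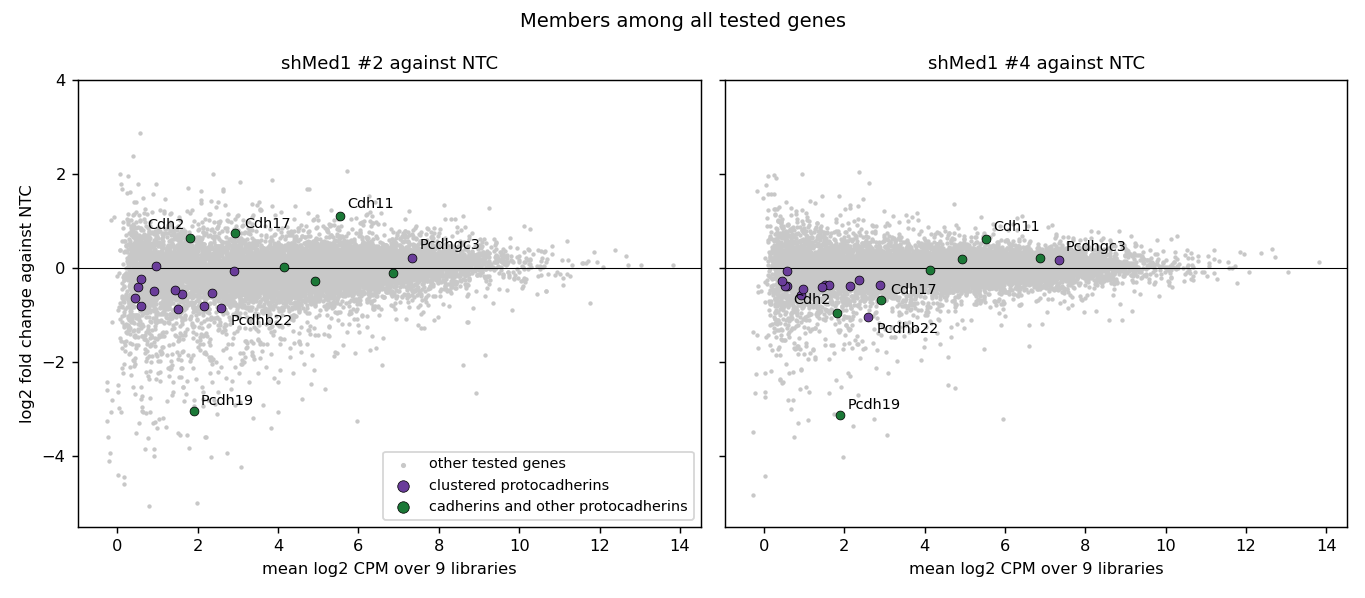
Log2 fold change against NTC (y axis) over mean log2 CPM (x axis) for the 13590 other tested genes (grey) and the 21 tested members (coloured), for shMed1 #2 on the left and shMed1 #4 on the right. Pcdh19 lies at -3.03 and -3.12 below the other members, and the clustered members under 3 log2 CPM lie between -1.04 and 0.04.

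Genes that work with cadherins were taken from lists made up for this family. Over all 13611 tested genes the median log2 fold change was -0.0035 with shMed1 #2 and 0.00086 with shMed1 #4. Against these genes the counts of each list are to be read: 21.8% were higher and 21.9% lower with shMed1 #2, 14.0% higher and 14.1% lower with shMed1 #4, and 10.4% higher and 10.1% lower with both. The lists were not tested against them. Of 18 tested catenins and junction partners, 9 were higher and 7 lower with shMed1 #2 (median 0.15), and 9 higher and 1 lower with shMed1 #4 (median 0.21), with 9 higher and 1 lower with both. The desmosomal plakophilin gene Pkp2 rose to 116 CPM with shMed1 #2 and 91.0 CPM with shMed1 #4, against 60.3 CPM in NTC (adjusted p = 1.62e-25 and 4.84e-14). Pkp4, whose protein binds classical cadherins, rose to 209.6 and 161 CPM, against 119.7 CPM in NTC. Vinculin (Vcl), which binds alpha-catenin under tension, rose to 626 and 529.9 CPM, against 409.6 CPM in NTC, and the actin-binding gene Lima1 rose to 177 and 155 CPM, against 120.3 CPM in NTC. Chosen after their values were seen, alpha-catenin (Ctnna1) rose to 725 and 641 CPM, against 529.8 CPM in NTC, and beta-catenin (Ctnnb1) averaged 529 and 545 CPM, against 512 CPM in NTC (adjusted p = 0.344 and 0.0797). Plakoglobin (Jup), also chosen so, fell to 2.84 CPM with shMed1 #2 and 6.76 CPM with shMed1 #4, against 9.29 CPM in NTC (log2 fold changes -1.71 and -0.46, adjusted p = 2.03e-11 and 0.0326). Its second call was lost in DESeq2 (0.140), and on leaving out NTC replicate 2 (0.0792) or 3 (0.170) or shMed1 #4 replicate 1 (0.250) or 2 (0.0566). Unlike Pkp2 and Pkp4, the plakophilin genes Pkp1 and Pkp3 were called lower with shMed1 #2 (log2 fold changes -1.04 and -1.08). They were not called with shMed1 #4 (0.02 and -0.33), and were also chosen after their values were seen.

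Of 27 other genes of the cadherin superfamily, 5 passed the filter on low counts and were tested. The giant cadherin Fat1 rose to 456 ± 19.2 CPM with shMed1 #2 and 334 ± 9.44 CPM with shMed1 #4, against 223 ± 15.2 CPM in NTC (log2 fold changes 1.03 and 0.58, adjusted p = 1.63e-34 and 4.24e-19). Fat4, which binds Dchs1, rose to 53.6 ± 2.39 and 66.9 ± 4.52 CPM, against 38.0 ± 3.65 CPM in NTC (0.50 and 0.82, adjusted p = 2.82e-08 and 2.98e-16). Fat2 was called in opposite directions like Cdh2 and Cdh17, at 2.96 ± 0.623 CPM with shMed1 #2 and 0.780 ± 0.165 CPM with shMed1 #4, against 1.63 ± 0.618 CPM in NTC (0.86 and -1.04, adjusted p = 0.0172 and 0.0463). At these low counts both calls of Fat2 were lost in DESeq2 (adjusted p = 0.0851 and 0.119). The first call also ended without NTC replicate 2, NTC replicate 3 or shMed1 #2 replicate 1 (adjusted p up to 0.126). The second ended without NTC replicate 1 or 3, shMed1 #2 replicate 3 or any one shMed1 #4 replicate (up to 0.299), and with no filter on low counts (0.0863). The planar polarity cadherin Celsr1 averaged 0.884 and 0.587 CPM, against 1.11 CPM in NTC, and did not pass (adjusted p = 0.583 and 0.162).

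Of 18 tested genes of cadherin shedding, processing and turnover, 6 were higher and 3 lower with shMed1 #2 (median 0.03), and 4 higher and 2 lower with shMed1 #4 (median 0.02). The sheddase gene Adam10, whose protein cleaves N-cadherin and gamma protocadherins, rose by 0.18 and 0.16 (adjusted p = 0.000982 and 0.00750), the second call lost without shMed1 #4 replicate 2 (0.0746). The phosphatase gene Ptpn1 rose by 0.22 and 0.19. Numbl fell with shMed1 #2 (-0.75, adjusted p = 5.04e-09), with -0.22 and adjusted p = 0.0913 for shMed1 #4, and the phosphatase gene Ptprf rose by 0.32 with shMed1 #2 (adjusted p = 5.98e-10), with 0.03 and adjusted p = 0.622 for shMed1 #4.

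Of 19 regulators of clustered protocadherin promoters and chromatin, 5 were higher and 6 lower with shMed1 #2 (median -0.03), and 2 higher and 1 lower with shMed1 #4 (median 0.00075). The histone methyltransferase gene Ehmt2 fell (-0.45 and -0.28, adjusted p = 6.55e-14 and 4.31e-07). The cohesin gene Smc1a rose by 0.26 and 0.25, and Smchd1, whose protein represses the protocadherin clusters in mice, rose by 0.31 and 0.20 (adjusted p = 5.72e-08 and 0.000835). Wiz, whose protein joins CTCF sites and Ehmt2, fell with shMed1 #2 (-0.17, adjusted p = 0.00418), with adjusted p = 0.116 for shMed1 #4, or 0.0460 there when scaled by library size alone. Ctcf, chosen after its values were seen, averaged 186 CPM with shMed1 #2 and 174 CPM with shMed1 #4, against 179 CPM in NTC (adjusted p = 0.307 and 0.542).

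Of 15 tested cytoplasmic partners of protocadherins, 5 were higher and 1 lower with shMed1 #2 (median 0.05), and 7 higher and 0 lower with shMed1 #4 (median 0.15). A pair of subunits of the WAVE complex, which binds several delta-type protocadherins, rose with both hairpins: Nckap1 by 0.57 and 0.27 (adjusted p = 2.83e-21 and 9.78e-08) and Cyfip1 by 0.31 and 0.15 (adjusted p = 7.13e-09 and 0.00682), the last call lost without shMed1 #4 replicate 2 (0.0563). The kinase genes Ptk2b and Ptk2, whose proteins gamma protocadherins inhibit, rose by 0.62 and 0.53 and by 0.20 and 0.15.

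Of 11 tested transcription factors of E-cadherin control, 1 was higher and 4 lower with shMed1 #2 (median -0.04), and 1 higher and 2 lower with shMed1 #4 (median -0.02). Klf4, an activator of Cdh1, fell (-0.65 and -0.60, adjusted p = 1.77e-11 and 5.29e-10). The epithelial factor gene Elf3 rose by 0.52 and 0.59 (adjusted p = 0.00628 and 0.00284), the first call lost without NTC replicate 1 (0.0508). Tcf3, a repressor of Cdh1, fell with shMed1 #2 (-0.39, adjusted p = 1.23e-10), with adjusted p = 0.274 for shMed1 #4. Tcf4 fell (-0.36 and -0.17, adjusted p = 1.26e-06 and 0.0313), the second call lost in DESeq2 (0.0903), with no filter on low counts (0.0627) and without NTC replicate 1 or 3 or shMed1 #4 replicate 1 or 3 (up to 0.113). E-cadherin itself had at most 2 counts in any library.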

How the data were processed

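The measurements are RNA-seq read counts per gene in 9 libraries. The deposited files hold raw counts per Ensembl gene identifier, which the authors made with STAR and HTSeq on GRCm38 (mm10), per the submitters' processing notes. No source used here gives their versions, the annotation release or the strand setting. No line named no gene (0 of 55335). Symbols, types and exons came from GENCODE M21, matched by identifier, and promoters from RefSeq. The members, gene lists and tests were chosen with earlier results of these data known.

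Counts were fitted over all 3 groups with edgeR 4.0.16 (R 4.3.3) by TMM scaling, filterByExpr and the quasi-likelihood test. This left 13611 genes, with Benjamini-Hochberg adjustment over all of them and a threshold of 0.05. The script was tested on simulated counts. CPM uses the TMM-scaled library size, SDs are over 3 libraries, and 95% intervals follow from the SE of the fit. A floor of 3 counts covers counting error only. DESeq2 1.42.0, other scalings and filters, fits of the compared groups alone, a replicate block and leaving out each library were alternatives. Values in every sample are given for members called in any comparison, for Cdh1, Cdh2, Cdh3, Cdh5 and Cdh11, and for members whose mean log2 CPM reached 1. The other members are given by range, with the highest 3 named. From each gene list up to 4 genes are named, those called with both hairpins in 1 direction first, by the p of the mean of both hairpins against NTC.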

Additional observations from a re-analysis of the deposited data

Results flagged for a closer look

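The response of 5 members differed between the hairpins by the direct test of shMed1 #4 against shMed1 #2 (edgeR, adjusted over all 13611 genes). The log2 difference was -1.60 for Cdh2, -1.41 for Cdh17, -0.49 for Cdh11, 0.32 for Pcdh18 and 0.46 for Cdh24. Med1 itself did not pass between the hairpins (log2 difference 0.10, 95% interval from -0.08 to 0.28, adjusted p = 0.461). Which part of these differences belongs to the hairpin sequence, to the transduced cells or to Med1 cannot be told apart in this design.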

How the results depend on the processing

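Of the 21 tested members, 10 were called with shMed1 #2 against NTC, and 8 (DESeq2) to 11 under the other settings. With shMed1 #4 against NTC 7 were called, and between the hairpins 5, in every setting that kept all libraries. Leaving out 1 library gave 8 to 11, 6 to 7 and 5 to 6 members, and 5290 to 6138, 3172 to 3878 and 2817 to 3566 called genes in these comparisons. Over all genes DESeq2 called 4903 with shMed1 #2 and 2815 with shMed1 #4, against 5947 and 3837 by edgeR. Among the named members, 0 called values changed sign. The filter decides how many members can be tested, 64 with none and 15 with 20 counts in 3 libraries. At this depth 19 of 23 Cdh genes and 43 of 57 clustered protocadherin genes could not be tested.

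The replicate numbers do not pair the samples: deviations of same-numbered samples correlated by -0.0442 to 0.0477 over genes, those of other numbers by -0.0853 to 0.105. With the replicate number as a block, 10 members were called with shMed1 #2, 7 with shMed1 #4 and 5 between the hairpins, and 5891, 3786 and 3461 genes in all.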
